A study of Mus musculus with 30 samples.

Results

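The comparison described here is that of a high fat diet (HFD) with a standard fat diet (SFD) in the aorta of wild-type (WT) mice. It rests on 7 of the 30 RNA libraries of the series, 4 from WT-HFD and 3 from WT-SFD mice, chosen by the tissue, genotype and diet in their labels, and on all 41128 genes in the deposited count table. Other libraries of the series come from aortae of mice lacking the epidermal growth factor receptor (EGFR) in vascular smooth muscle, which are drawn on only for comparison, and from kidneys, not analysed here. The question put by the design is what a long exposure to a diet that models obesity and type 2 diabetes does to gene expression in the vessel wall when smooth muscle EGFR is intact.

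All mice were male and are labelled C57Bl6J, while the study's methods name parents of C57BL/6 and C57BL/6N background, so the substrain of each mouse is not settled. The WT mice had no loxP sites in Egfr, but like the knockout (KO) mice they carried the transgene SMMHC-Cre on the Y chromosome, a Cre recombinase that tamoxifen switches on and that the promoter of smooth muscle myosin heavy chain (Myh11) confines to smooth muscle. Both genotypes received 1 mg tamoxifen in 50 µl Miglyol 812 per day for 5 days. The diets began at 6 weeks of age and lasted 18 weeks. WT therefore means Egfr intact, in animals that carry Cre and were given tamoxifen. The 7 KO aortae used beside them, 3 on SFD and 4 on HFD, came from mice with both Egfr alleles floxed and the same Cre and tamoxifen. Each mouse is named below by its diet and replicate number, SFD1 to SFD3 and HFD1 to HFD4, and values are given in that order.

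As background, the wall of the aorta is mostly smooth muscle, which builds and bears the elastic matrix, lined by endothelium and wrapped in fibroblasts, nerves and fat. The fat along the mouse thoracic aorta contains brown adipocytes, which burn fatty acids in mitochondria and can release heat through uncoupling protein 1, next to white adipocytes, which store lipid. Fat and connective tissue next to the aortae were removed before freezing, so what remains of that fat can differ from mouse to mouse. In whole tissue, fewer cells of a type and less RNA per cell cannot be told apart.

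The libraries held between 7680588 counts in mouse SFD3 and 10466922 counts in mouse SFD2, and 14796 of the 26846 genes with a count in any aorta were high enough to test. Levels are given as FPM, the study's unit of expression: counts per library, brought to one common library total that was scaled by the trimmed mean of M values (TMM). FPM is not divided by gene length, so levels of different genes are not compared. The tissue label fitted its markers: smooth muscle α-actin, Acta2, measured 4665, 5274 and 6244 FPM in the SFD mice and 8235, 7677, 7382 and 7275 FPM in the HFD mice, and smooth muscle myosin, Myh11, measured 4015, 5548 and 7271 FPM in the SFD mice and 6231, 6266, 6956 and 7267 FPM in the HFD mice. Lmod1, an actin nucleator of smooth muscle, lay between 415 and 694 FPM in these mice, and the endothelial genes Pecam1 and Vwf lay between 292 and 484 FPM. The other smooth muscle markers Tagln and Cnn1 and the endothelial marker Cdh5 stood at 0 in all 14 aortae, as did every gene listed on chromosomes 9, X and Y and on the mitochondrial genome and some genes of chromosome 8, so they check nothing.

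The libraries did not all follow their diet. The 11 marker genes used to follow adipocytes (Ucp1, Cidea, Dio2, Cox8b, Elovl3, Adipoq, Plin1, Cidec, Lep, Retn and Pparg) had a mean log2 CPM of 6.69 in mouse SFD1 and 6.30 in mouse SFD2, against 1.43 in mouse SFD3. The HFD mice had 1.89, 2.01, 3.04 and 2.74, so mouse SFD3 lay below all of them. Over all 14796 genes, mouse SFD3 was nearer the HFD mean than the mean of the other SFD mice for 9748. The white adipocyte genes summed to 8566, 6559 and 779.7 FPM in mice SFD1, SFD2 and SFD3 and to 748, 726, 1003 and 924 FPM in mice HFD1, HFD2, HFD3 and HFD4. Values below include mouse SFD3, and medians of the gene lists are also given without it and with the mean of the 11 markers added to the fit as a covariate. That covariate shares 11 genes with the adipocyte lists and 1 with the respiratory chain list.

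The mouse numbers in the labels split the mice in a similar way. Mice SFD1, SFD2 and KO-SFD1 carry lower numbers, well apart from those of SFD3, the other KO-SFD mice and all HFD mice, and the labels do not say what the numbering follows. Diet and number series therefore cannot be told apart for 2 of the 3 WT-SFD mice. Within the later series, 1 WT-SFD mouse stands against 4 WT-HFD mice, and in an edgeR fit of these mice, in which the lone mouse is assumed to vary like the other groups, no gene passed an adjusted p of 0.05 and 511 genes were higher and 423 lower at an unadjusted p under 0.05. There the median log2 fold change was 0.56 for white adipocyte genes, 0.36 for fatty acid synthesis, 0.063 for the respiratory chain, 0.048 for contractile genes, 0.10 for the extracellular matrix and 0.074 for the Wnt pathway, against -3.29, -3.17, -0.97, 0.29, 0.30 and 0.26 with all mice. Of the 144 genes whose values are given here, 32 had the opposite direction within the later series, among them Fasn, Fabp4, Ucp1, Atp5b, Fos and Myh11. In KO, where 2 SFD mice belong to the later series, the medians of white adipocyte and respiratory chain genes were -1.31 and -0.30 within it.

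**Figure D1:**
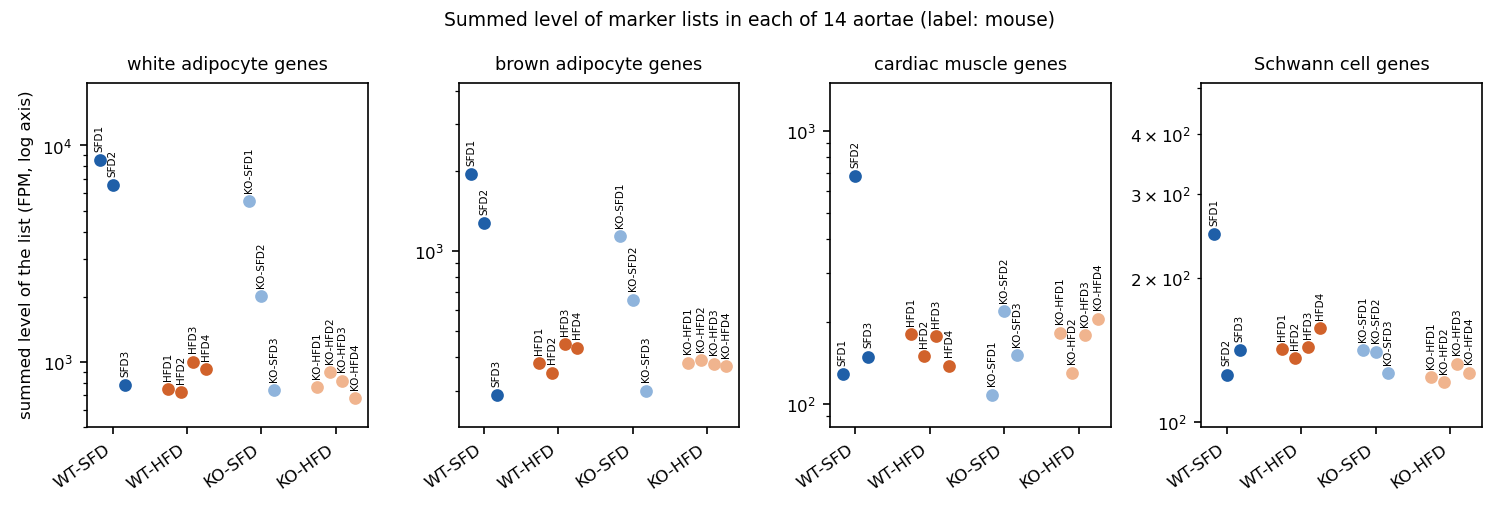
Summed FPM (logarithmic axis) of the white adipocyte, brown adipocyte, cardiac muscle and Schwann cell gene lists in each of the 14 aortae, grouped by genotype and diet, each point 1 mouse. Mice SFD1 and SFD2 stand at 8566 and 6559 FPM of white adipocyte genes, whereas mouse SFD3 lies at 779.68 FPM among the 4 WT-HFD mice (726.08 to 1003 FPM).

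Other libraries differed in other tissues' genes. Mouse SFD2 carried 248 FPM of Myh6, the α-myosin of heart muscle, against 0.767 to 5.42 FPM in the other 6 WT mice, and it was also the highest of the 7 in Actc1, 49.6 FPM, and Tnnt2, 47.0 FPM. Mouse SFD1 was the highest in the myelin gene Mbp, at 55.8 FPM. Small and structural RNAs took 29.4% ± 1.55 (SD, n = 3) of the counts on SFD and 33.6% ± 6.42 (SD, n = 4) on HFD, a difference of 4.27 percentage points with an exact two-sided permutation p of 0.3714, where 35 splits allow no p below 0.0286. Mouse HFD4 was the highest at 43.1%. The 9 annotated copies of U1 small nuclear RNA had counts within a ratio of 1.1 of each other in 11 aortae, but in mouse HFD2 the highest copy had 24.4 times the counts of the lowest.

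No gene differed between the diets at the limit of 0.001 that the study sets on the adjusted p, nor at 0.05, by the quasi-likelihood test of edgeR, adjusted over the 14796 genes after Benjamini and Hochberg. The smallest adjusted p was 0.0780. Without adjustment, 821 genes (5.55%) were higher on HFD and 1643 (11.1%) lower at a p under 0.05, a split that became 967 and 1133 when library totals replaced the TMM scaling. DESeq2, an alternative count test, called 95 genes (0.642% of 14788) higher and 571 (3.86%) lower at an adjusted p under 0.05. With mouse SFD3 left out, edgeR called 495 genes (3.23% of 15329) higher and 1306 (8.52%) lower at that limit. With all 7 mice kept, edgeR called 527 genes without its filter on low counts and 219 with library totals in place of TMM, so the outcome turned on this mouse and also on filter, scaling and tool. Without mouse SFD3 both SFD mice left are of the earlier number series and all HFD mice of the later one, so in WT diet and series cannot be told apart in any call of that fit. Genes called in that fit alone are described below as such. Standard errors of the log2 fold changes, which are HFD minus SFD throughout, had a median of 0.23.

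Separation between mice gives a second view, one that does not depend on the test. In 656 genes (4.43%) every HFD mouse lay above every SFD mouse, and in 670 genes (4.53%) every HFD mouse lay below. Separation in a given direction has a share of 0.0286 among the 35 splits of 3 and 4 mice, so some genes separate by chance. The study also uses limits of effect size: Cohen's d above 2, a ratio of means above 1.5 and a higher mean above 5 FPM. Of the 10431 genes above 5 FPM, 67 (0.642%) met them with higher and 156 (1.5%) with lower expression on HFD. Without TMM, scaled by the plain library totals, the median of all genes shifted by 0.112 on the log2 scale and the split became 167 higher and 82 lower.

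Of the 26 gene lists examined, that of white adipocytes had the lowest median. Among the 18 brown adipocyte genes tested, 14 were lower and 1 was higher at an unadjusted p under 0.05. Among the 22 white adipocyte genes 20 were lower. Of all genes, 11.1% were lower and 5.55% higher at that limit. The median log2 fold change was -2.26 for the brown and -3.29 for the white adipocyte genes. The median over all genes was -0.01. Ucp1, the uncoupling protein that lets brown fat turn fuel into heat, measured 580.2, 256 and 3.03 FPM in the SFD mice and 3.98, 12.6, 21.3 and 27.5 FPM in the HFD mice. Lpl, the lipase that takes fatty acids from blood lipoproteins, measured 1512, 1464 and 87.1 FPM in the SFD mice and 74.8, 75.3, 120.1 and 69.7 FPM in the HFD mice. Fabp4, the fatty acid carrier of adipocytes, measured 1290.0, 1093 and 37.0 FPM in the SFD mice and 43.0, 42.1, 68.3 and 55.4 FPM in the HFD mice. In each of these 3 genes, mouse SFD3 lay within or below the HFD range and the groups overlapped, although 2 SFD mice stood far above every HFD mouse.

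Leaving out mouse SFD3 moved the medians to -2.76 and -3.83. Then 15 brown and 20 white adipocyte genes fell at an adjusted p under 0.05 in edgeR, beside 8.52% of all genes. With the adipocyte markers as covariate the medians were -0.085 and -0.38, and within the later number series 0.59 and 0.56. In KO mice, which share no animal with the WT groups, they were -1.40 and -2.52. Mouse KO-SFD3 likewise stood apart from its group, at 742.35 FPM of white adipocyte genes against 5529 and 2015 FPM in the other KO-SFD mice. Differences in trimming, in the amount of fat or in transcription within adipocytes cannot be told apart here.

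Prdm16 was the 1 gene of the brown adipocyte list that was higher at an unadjusted p under 0.05. Ckb, the brain-type creatine kinase, had a log2 fold change of 0.25 ± 0.18 (SE) and an unadjusted p of 0.179. Prdm16 encodes a zinc finger coregulator known for its part in brown fat identity and also used in other cell types. It lay at chr4:154316125-154636873 (GRCm38) and measured 118, 130.1 and 127 FPM in the SFD mice and 181, 161, 204 and 189.9 FPM in the HFD mice, so every HFD mouse lay above every SFD mouse and mouse SFD3 stayed with its diet group. The log2 fold change was 0.56 ± 0.13 (SE), with an unadjusted p of 8.85e-04, and 0.49 with the adipocyte covariate. Ppargc1a, the coactivator that drives formation of mitochondria, separated in the other direction, with 31.1, 22.1 and 8.23 FPM in the SFD mice and 5.20, 5.23, 5.21 and 5.63 FPM in the HFD mice.

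Enzymes that make fatty acids followed the adipocyte genes. Of 16 tested, 15 were lower at an unadjusted p under 0.05 and none higher, beside 11.1% and 5.55% of all genes. The list had a median log2 fold change of -3.17 (-3.71 without mouse SFD3, -0.63 with the covariate, 0.36 within the later number series). Fasn, fatty acid synthase, measured 10294, 7062 and 174 FPM in the SFD mice and 109.7, 101, 285 and 229 FPM in the HFD mice. Scd1, which desaturates the product, measured 15928, 12088 and 326 FPM in the SFD mice and 185, 159.9, 594 and 416 FPM in the HFD mice. Acaca, which makes the malonyl unit that Fasn uses, measured 999.9, 759 and 53.1 FPM in the SFD mice and 38.7, 39.5, 64.8 and 54.7 FPM in the HFD mice. Mice SFD1 and SFD2 thus exceeded all other WT mice in Fasn and Scd1 by more than an order of magnitude, and mouse SFD3 lay inside the HFD range in both. Only Dgat1, an enzyme of the last step of triglyceride synthesis, separated the groups completely, with 87.8, 59.3 and 18.9 FPM in the SFD mice and 13.9, 18.9, 15.5 and 17.5 FPM in the HFD mice. Mice SFD3 and HFD2 were nearly equal in it.

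The breakdown of fatty acids and the citric acid cycle moved the same way with smaller steps. In fatty acid oxidation, 19 of 21 genes were lower at an unadjusted p under 0.05, median -1.78. In the tricarboxylic acid cycle 14 of 15 were lower, median -1.37, beside 11.1% of all genes. Without mouse SFD3 the medians were -2.24 and -1.76, and with the covariate -0.28 and -0.33. Within the later number series they turned to 0.26 and 0.063. Hadha, a subunit of the mitochondrial trifunctional protein of β-oxidation, measured 387, 270.2 and 58.2 FPM in the SFD mice and 70.4, 58.2, 77.7 and 71.5 FPM in the HFD mice. Cpt1a, the liver-type carnitine transferase at the mitochondrial gate, was one of the genes that did not follow, with 67.0, 88.1 and 69.0 FPM in the SFD mice and 92.0, 72.8, 68.4 and 75.6 FPM in the HFD mice. Pcx, pyruvate carboxylase, which refills the cycle and serves lipid synthesis, had the lowest log2 fold change of the cycle list, -4.40 ± 0.90 (SE), from 362, 250.2 and 10.5 FPM in the SFD mice and 7.45, 8.74, 12.6 and 10.5 FPM in the HFD mice.

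Respiratory chain genes encoded in the nucleus were all lower on average. The 69 genes tested had negative log2 fold changes without exception, with a median of -0.97. Of the 69, 60 were lower at an unadjusted p under 0.05, beside 11.1% of all genes. By complex, 28 of 35 genes of complex I, all 3 of complex II, 9 of 9 of complex III, 8 of 8 of complex IV and 12 of 14 of complex V passed that unadjusted limit. Separation was rarer: in 9 of the 69 every HFD mouse lay below every SFD mouse, beside 4.53% of all genes. One was Sdha, the flavoprotein subunit of succinate dehydrogenase in complex II, with 414, 299 and 102 FPM in the SFD mice and 89.3, 84.9, 97.6 and 98.5 FPM in the HFD mice. Ndufs1, the largest iron-sulphur subunit of complex I, measured 97.6, 75.3 and 33.9 FPM in the SFD mice and 25.5, 31.5, 32.2 and 30.4 FPM in the HFD mice. In both, mouse SFD3 lay just above the highest HFD mouse and far below its own group mates.

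Atp5b, the catalytic β subunit of ATP synthase, shows the commoner pattern of the chain, 782, 621 and 184 FPM in the SFD mice and 185, 183, 196 and 205 FPM in the HFD mice, in which mouse SFD3 lay inside the HFD range. Without mouse SFD3 the median of the 69 genes was -1.28. In that fit 61 fell at an adjusted p under 0.05 in edgeR, beside 8.52% of all genes. With the adipocyte covariate the median was -0.28. Cox7a1 and Cox8b, complex IV isoforms of muscle and brown fat, had log2 fold changes of -3.10 and -3.70, well below the list median, while the ubiquitous isoform Cox8a had -1.14.

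**Figure D2:**
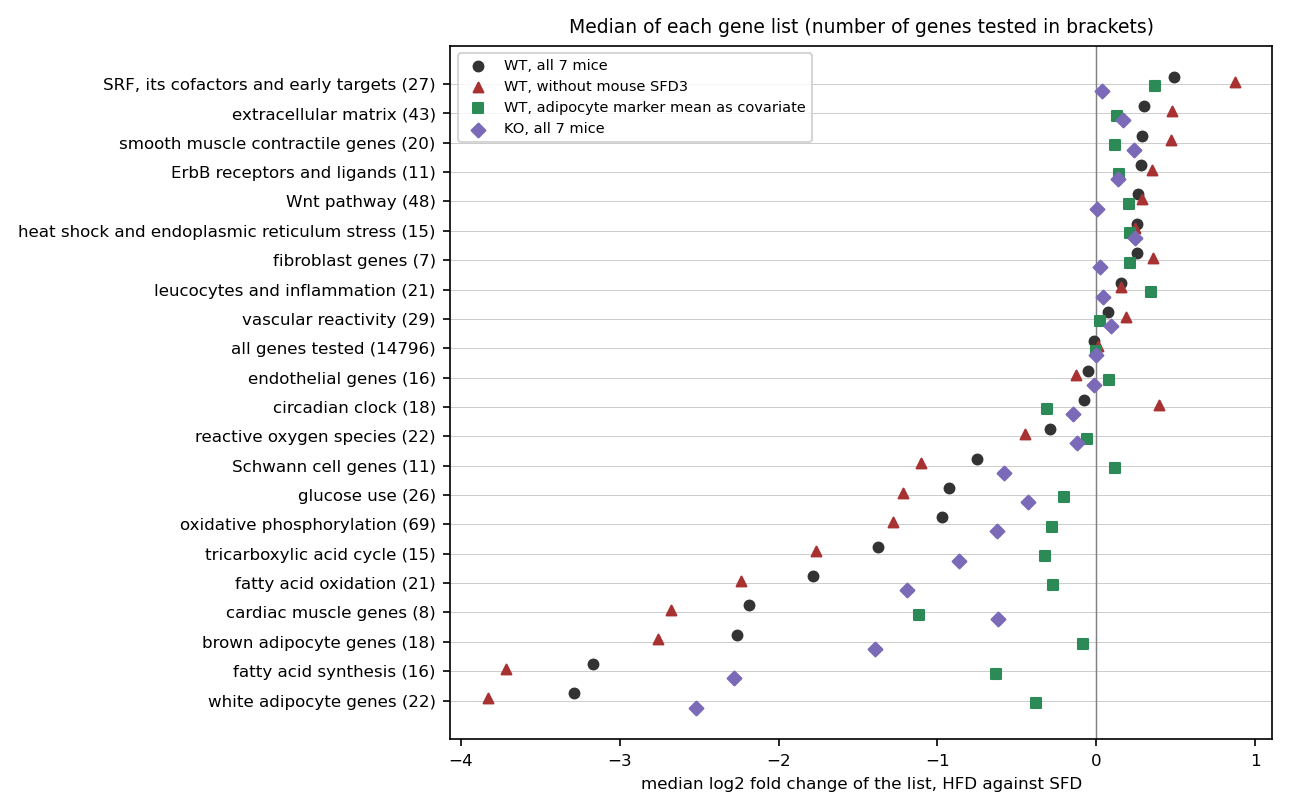
Median log2 fold change (HFD minus SFD) of the tested members of each gene list in WT mice, in WT mice without mouse SFD3, in WT mice with the adipocyte marker covariate, and in KO mice. White adipocyte and fatty acid synthesis genes have medians of -3.29 and -3.17 with all WT mice and -0.38 and -0.63 with the covariate, whereas the Wnt pathway list moves from 0.26 to 0.21. Within the later number series, not drawn, the medians of these lists were 0.56, 0.36 and 0.074 in that order.

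Glucose handling was divided between 2 transporters. Slc2a4 (GLUT4), the insulin-sensitive glucose transporter of fat and muscle, measured 114, 78.1 and 24.5 FPM in the SFD mice and 11.9, 16.6, 16.7 and 21.6 FPM in the HFD mice, so that every HFD mouse lay below every SFD mouse. Slc2a1 (GLUT1), the transporter that works without insulin, measured 18.0, 18.9 and 25.3 FPM in the SFD mice and 25.9, 27.2, 30.7 and 26.5 FPM in the HFD mice, and here every HFD mouse lay above. Their log2 fold changes were -2.12 ± 0.45 (SE) and 0.41 ± 0.16 (SE), and -0.96 and 0.30 with the adipocyte covariate. The insulin receptor gene Insr, at 194, 213 and 167 FPM in the SFD mice and 163, 164, 166 and 155 FPM in the HFD mice, separated by diet as well, by a small step.

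Of all 26 genes of glucose use tested, 18 were lower and 1 was higher at an unadjusted p under 0.05. Of all genes, 11.1% were lower and 5.55% higher. The list median was -0.93 (-1.22 without mouse SFD3, -0.20 with the covariate, 0.10 within the later number series). Hk2, the hexokinase of insulin-responsive tissue, measured 146, 102 and 56.7 FPM in the SFD mice and 30.3, 39.2, 47.1 and 44.0 FPM in the HFD mice. Pdk1, a kinase of pyruvate dehydrogenase, measured 42.0, 38.7 and 14.4 FPM in the SFD mice and 9.89, 12.4, 10.8 and 10.2 FPM in the HFD mice. Both separated the diets.

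Genes for reactive oxygen species and their removal were mixed. Of 22 tested, 8 were lower and 1 was higher at an unadjusted p under 0.05, beside 11.1% and 5.55% of all genes. The list median was -0.29 (-0.45 without mouse SFD3, -0.059 with the covariate, 0.11 within the later number series). Sod3, the superoxide dismutase secreted into the vessel matrix, was the higher one, with 279.9, 323 and 321 FPM in the SFD mice and 406, 411, 395 and 398 FPM in the HFD mice and complete separation. Its log2 fold change was 0.39 ± 0.11 (SE), with an unadjusted p of 0.00412, and 0.32 with the covariate. Sod2, the mitochondrial form, measured 160.0, 116 and 53.7 FPM in the SFD mice and 50.6, 58.7, 65.2 and 64.1 FPM in the HFD mice, and catalase, Cat, measured 192, 150.1 and 45.0 FPM in the SFD mice and 57.6, 46.4, 53.8 and 56.4 FPM in the HFD mice. In both, the 2 SFD mice with high adipocyte marker levels were high and the groups overlapped. Nox4, the oxidase that produces hydrogen peroxide in smooth muscle, measured 151, 224 and 312 FPM in the SFD mice and 291, 256, 268 and 279 FPM in the HFD mice, with a wider spread among SFD than among HFD mice.

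Among protein-coding genes that separated the diets at more than 5 FPM, the 12 lower genes with the smallest p had unadjusted p-values from 3.59e-05 to 2.30e-04. Amy1 (chr3:113555710-113606699), amylase 1, which shares near-identical sequence with other amylase genes so that reads may be split between them, measured 46.1, 40.0 and 8.23 FPM in the SFD mice and 1.94, 1.51, 2.29 and 1.66 FPM in the HFD mice. Sult1a1 (chr7:126672865-126676432), a sulfotransferase of phenols, measured 34.7, 34.7 and 20.1 FPM in the SFD mice and 10.7, 9.85, 13.97 and 11.6 FPM in the HFD mice. Ephx2 (chr14:66084374-66124500), soluble epoxide hydrolase, which degrades vasodilator epoxides of arachidonic acid, measured 66.5, 61.0 and 15.3 FPM in the SFD mice and 10.9, 9.75, 12.0 and 12.4 FPM in the HFD mice. In Sult1a1 mouse SFD3 lay between its group mates and the HFD mice, while in Ephx2 it lay close to the HFD mice.

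Agmo (chr12:37241641-37582202), the alkylglycerol monooxygenase that cleaves ether lipids, measured 21.0, 14.8 and 6.35 FPM in the SFD mice and 4.59, 3.32, 4.38 and 3.07 FPM in the HFD mice. Slc1a3 (chr15:8634124-8710764), a glutamate and aspartate transporter, measured 50.8, 37.3 and 9.67 FPM in the SFD mice and 5.10, 6.43, 5.00 and 3.84 FPM in the HFD mice. Acat2 (chr17:12942890-12960747), a cytosolic thiolase that has a near-identical neighbour, Acat3, measured 46.3, 50.4 and 14.01 FPM in the SFD mice and 11.5, 10.7, 5.53 and 12.1 FPM in the HFD mice. In all of these mouse SFD3 lay nearer the highest HFD mouse than its own group mates.

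Other genes of this group act in mitochondria. Letm1 (chr5:33739673-33782817), an inner membrane ion exchanger, measured 96.2, 62.1 and 44.3 FPM in the SFD mice and 29.4, 31.9, 32.1 and 33.1 FPM in the HFD mice. Mief2 (chr11:60728398-60732951), an outer membrane receptor for the fission protein Drp1, measured 11.6, 9.43 and 5.20 FPM in the SFD mice and 2.86, 2.91, 3.96 and 4.22 FPM in the HFD mice. Hibadh (chr6:52546228-52640389), an enzyme of valine breakdown, measured 54.7, 52.7 and 23.8 FPM in the SFD mice and 21.4, 17.8, 22.9 and 20.8 FPM in the HFD mice. With the adipocyte covariate their log2 fold changes were -0.69, -1.03 and -0.58, against -1.10, -1.33 and -1.08 without it.

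The remaining members of the 12 were Abhd15, an adipocyte protein tied to insulin action on lipolysis, Tlcd2, a membrane lipid protein, and Gm20594, a predicted gene. Tlcd2 (chr11:75461715-75470899) measured 9.55, 11.2 and 6.64 FPM in the SFD mice and 2.04, 2.61, 3.44 and 2.30 FPM in the HFD mice, and its log2 fold change of -1.81 ± 0.35 (SE) was little altered by the covariate (-1.68). Gm20594 (chr6:79817916-79818364) measured 27.3, 21.0 and 11.8 FPM in the SFD mice and 3.57, 2.01, 3.54 and 4.60 FPM in the HFD mice. Abhd15 (chr11:77515121-77538607) measured 12.1, 5.64 and 1.59 FPM in the SFD mice and 0.408, 0.502, 0 and 0.767 FPM in the HFD mice. Without mouse SFD3 the edgeR adjusted p-values of the 12 ran from 7.29e-04 to 0.00229, which is a description, since the genes were chosen by p on the same mice.

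**Figure D3:**
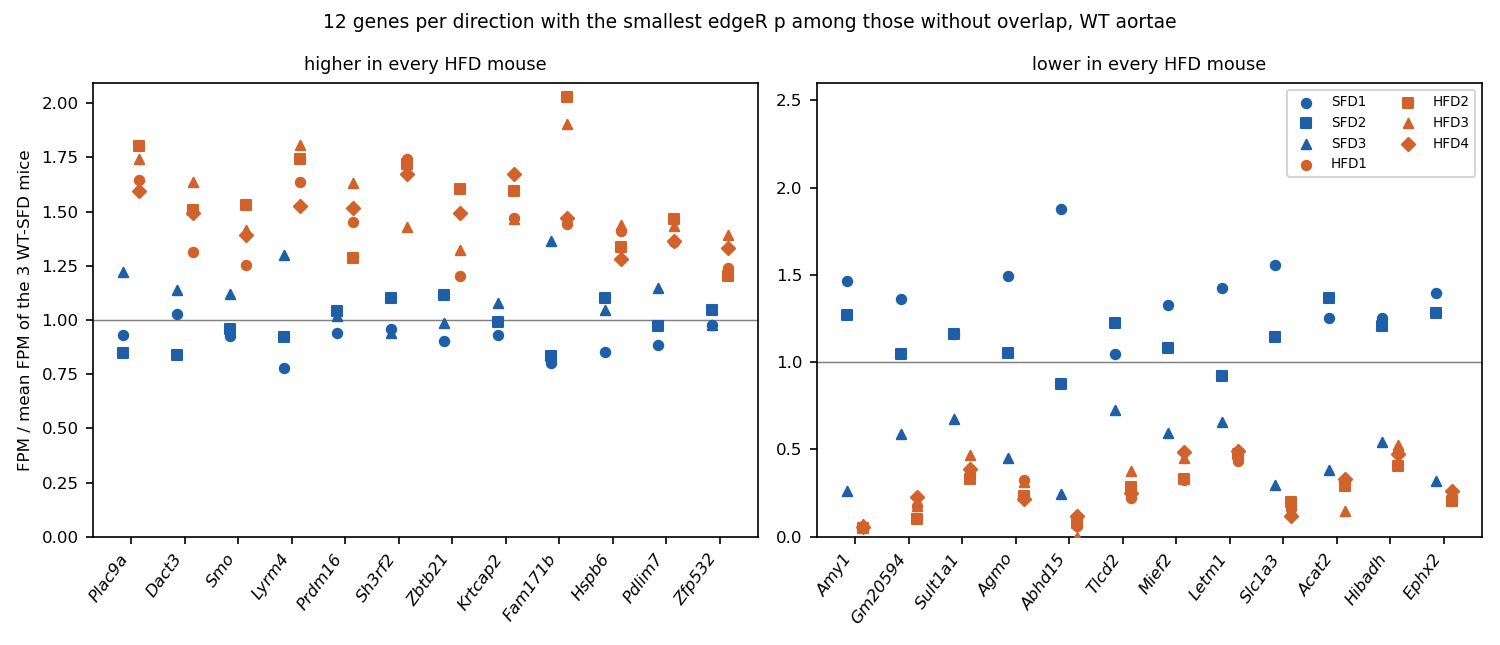
FPM of each WT mouse divided by the mean of the 3 SFD mice (linear axis) for the 12 higher and 12 lower protein-coding genes with complete separation and the smallest p. HFD mice lie beyond all SFD mice in every gene by selection, and in lower genes such as Amy1 mouse SFD3 (8.23 FPM) lies between its group mates and the HFD mice.

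The 12 higher genes chosen in the same way had smaller steps, from a log2 fold change of 0.37 for Zfp532 to 0.78 for Fam171b. The smallest p belonged to Plac9a (chr14:25887506-25903100), a small secreted protein whose near-identical copy Plac9b can share its reads, with 45.7, 41.7 and 60.2 FPM in the SFD mice and 81.1, 88.7, 85.7 and 78.5 FPM in the HFD mice. Its log2 fold change was 0.76 ± 0.14 (SE), with an unadjusted p of 7.58e-05, and 0.63 with the adipocyte covariate. Lyrm4 (chr13:35978395-36117526), a small subunit of the machine that builds iron-sulphur clusters, measured 5.87, 6.97 and 9.82 FPM in the SFD mice and 12.3, 13.2, 13.7 and 11.5 FPM in the HFD mice. Krtcap2 (chr3:89245966-89249906), a subunit of the complex that adds N-glycans to proteins, measured 12.3, 13.1 and 14.3 FPM in the SFD mice and 19.5, 21.1, 19.4 and 22.1 FPM in the HFD mice.

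Smo (chr6:29735503-29761365), the Smoothened receptor that transmits Hedgehog signals, measured 33.7, 34.9 and 40.7 FPM in the SFD mice and 45.7, 55.7, 51.5 and 50.8 FPM in the HFD mice. Dact3 (chr7:16875317-16887462), a Dishevelled-binding antagonist of Wnt signalling, measured 98.1, 80.1 and 109 FPM in the SFD mice and 126, 144, 156 and 143 FPM in the HFD mice. Fam171b (chr2:83812636-83883486) measured 7.37, 7.69 and 12.6 FPM in the SFD mice and 13.3, 18.7, 17.5 and 13.6 FPM in the HFD mice. Mouse SFD3 was the highest SFD mouse in each of these and still lay below every HFD mouse.

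Hspb6 (chr7:30552178-30555443), a small heat shock protein that is phosphorylated during smooth muscle relaxation, measured 50.0, 64.4 and 61.2 FPM in the SFD mice and 82.6, 78.3, 84.1 and 75.1 FPM in the HFD mice. Pdlim7 (chr13:55495795-55513676), a scaffold that links actin to kinases, measured 205, 226 and 267 FPM in the SFD mice and 316, 341, 333 and 317 FPM in the HFD mice. Sh3rf2 measured 19.8, 22.8 and 19.3 FPM on SFD and 35.9, 35.5, 29.5 and 34.5 FPM on HFD, Zbtb21 (chr16:97943357-97962622) measured 20.7, 25.6 and 22.7 FPM on SFD and 27.6, 36.9, 30.4 and 34.4 FPM on HFD, and Zfp532 measured 68.5, 73.2 and 68.6 FPM on SFD and 87.0, 84.3, 97.5 and 93.3 FPM on HFD. In Sh3rf2, Zbtb21 and Zfp532 mouse SFD3 did not stand near the HFD mice, and their log2 fold changes without it were 0.67, 0.48 and 0.36 against 0.71, 0.49 and 0.37 with it. For these 12 the edgeR adjusted p-values without mouse SFD3 ran from 7.85e-04 to 0.0431, likewise a description of genes chosen on the same mice.

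By effect size rather than p, the genes with the largest Cohen's d among those that met the limits included some in which all mice of a diet were close together. Map3k6 (chr4:133240818-133252929), a stress-activated kinase of the MAP kinase cascade, measured 25.7, 25.5 and 24.7 FPM in the SFD mice and 14.9, 14.6, 16.4 and 16.0 FPM in the HFD mice, a Cohen's d of -13.2. Aldh18a1 (chr19:40550257-40588463), the first enzyme of proline synthesis, measured 15.4, 12.7 and 13.0 FPM in the SFD mice and 21.1, 23.7, 19.9 and 21.4 FPM in the HFD mice, a d of 5.04. The long noncoding RNA Hoxaas2 of the Hoxa cluster measured 8.19, 9.13 and 9.82 FPM in the SFD mice and 13.5, 13.7, 15.4 and 15.3 FPM in the HFD mice. Since the d values rest on 3 and 4 mice and were ranked over all genes that met the limits, they are described, not tested.

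On the lower side, this ranking also held Lmo7, a protein of cell junctions, with 27.2, 23.7 and 20.8 FPM in the SFD mice and 14.8, 15.9, 12.8 and 15.2 FPM in the HFD mice, and Lcorl, a transcription factor tied to body size, with 9.14, 7.69 and 6.64 FPM in the SFD mice and 4.79, 4.12, 4.48 and 3.71 FPM in the HFD mice. H2.Q1, a class I histocompatibility gene that shares reads with its relatives, measured 4.91, 5.33 and 5.49 FPM in the SFD mice and 2.55, 3.42, 3.86 and 2.69 FPM in the HFD mice. Without mouse SFD3 their edgeR adjusted p-values were 0.0141, 0.00996 and 0.218, given as a description for the same reason.

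Some contractile genes of smooth muscle were higher on HFD by small steps, and most did not pass. Of 20 tested, 5 were higher and 1 was lower at an unadjusted p under 0.05, beside 5.55% and 11.1% of all genes. In 5 every HFD mouse lay above every SFD mouse, beside 4.43% of all genes, and the list median was 0.29 (0.47 without mouse SFD3, 0.12 with the covariate, 0.048 within the later number series). Acta2, whose values are given above, had a log2 fold change of 0.50 ± 0.22 (SE) and complete separation, whereas Myh11 overlapped between the diets, with 0.25 ± 0.21 (SE) and an unadjusted p of 0.239. Vcl, vinculin, which ties actin to adhesion sites, measured 221, 253 and 305 FPM in the SFD mice and 349, 331, 308 and 325 FPM in the HFD mice. Tgfb1i1, the adhesion protein Hic-5, measured 157, 162 and 184 FPM in the SFD mice and 211, 216, 228 and 221 FPM in the HFD mice.

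Many of these genes are driven by serum response factor (SRF), which binds the CArG box, with its cofactor myocardin. Srf itself measured 59.4, 60.4 and 57.3 FPM in the SFD mice and 61.4, 59.5, 82.8 and 72.9 FPM in the HFD mice, and the myocardin gene Myocd 127, 171 and 215 FPM in the SFD mice and 224, 247, 156 and 190.2 FPM in the HFD mice. Neither passed the unadjusted limit, with p of 0.0662 and 0.226. The windows from 250 bases before to 50 bases after the start of a gene in RefSeq (GRCm38.p6) held a CArG box in 1.57% of all promoters, in 2 of 16 contractile genes and in 2 of 18 genes of the SRF list. The boxes found are shown because they are the sequences at which SRF is known to act on such genes, with the box in capitals, 10 bases of flank on either side and the distance from its start to the gene start in the strand of the gene:
Vcl, chr14:20929161-20929190, plus strand, 227 bases before the start: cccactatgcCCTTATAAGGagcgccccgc
Myl9, chr2:156775293-156775322, plus strand, 161 bases before: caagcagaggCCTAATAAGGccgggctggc
Srf, chr17:46556225-46556254, minus strand, 82 bases before: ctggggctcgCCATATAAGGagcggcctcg
Srf, chr17:46556205-46556234, minus strand, 62 bases before: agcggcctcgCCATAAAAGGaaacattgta
Zfp36, chr7:28379267-28379296, minus strand, 58 bases before: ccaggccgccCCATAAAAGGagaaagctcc
A match of letters describes the sequence and does not show binding. The start meant is that of RefSeq, which lay at the start of the GENCODE gene for Vcl, 13 and 44 bases inside it for Srf and Myl9, and 1025 bases inside it for Zfp36.

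Of the genes with these boxes, Vcl separated the diets, whereas Myl9, a regulatory light chain of myosin, measured 703, 895 and 1091 FPM in the SFD mice and 1049.6, 1087, 1126 and 1251 FPM in the HFD mice, and Zfp36, a protein that destabilises messenger RNA, measured 40.7, 36.9 and 74.2 FPM in the SFD mice and 72.8, 49.6, 84.2 and 76.2 FPM in the HFD mice. Zfp36 belongs to the immediate early genes, which respond within minutes to growth factors, stretch or handling of tissue. The list of SRF, its cofactors and immediate early genes had 27 genes tested. Of these 27, 5 were higher and none lower at an unadjusted p under 0.05, beside 5.55% and 11.1% of all genes. The list median was 0.49. The median was 0.87 without mouse SFD3, 0.37 with the covariate, -0.024 within the later number series and 0.033 in KO.

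Fos, the founding immediate early gene, measured 9.96, 16.1 and 81.7 FPM in the SFD mice and 77.9, 29.0, 103 and 70.5 FPM in the HFD mice. Jun, its partner in the AP-1 factor, measured 44.5, 55.9 and 116 FPM in the SFD mice and 102, 101, 163 and 95.8 FPM in the HFD mice, and Cyr61, a matricellular target of stretch and SRF, measured 29.2, 64.4 and 152 FPM in the SFD mice and 111, 164, 378 and 86.6 FPM in the HFD mice. Mouse SFD3 was as high as the HFD mice in all 3, and mouse HFD3 was the highest of the 7. Without mouse SFD3, 13 of the 27 rose at an adjusted p under 0.05 in edgeR, beside 3.23% of all genes. The 13 included Fos (adjusted p 0.00406) and Jun (adjusted p 0.00382). Within the later series, however, Fos had a log2 fold change of -0.21 and Jun of 0.0058. Ctgf, another matricellular target, was highest in mouse HFD1, with 178, 317 and 383 FPM in the SFD mice and 622, 548, 435 and 279.5 FPM in the HFD mice.

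Members of the ErbB family, to which EGFR belongs, and their ligands showed none higher and 1 lower at an unadjusted p under 0.05 among 11 tested, beside 5.55% and 11.1% of all genes. The list median was 0.28 (0.35 without mouse SFD3, 0.14 with the covariate, 0.14 within the later number series). The lower gene was Erbb3, the neuregulin co-receptor that Schwann cells need, at 7.92, 4.10 and 3.03 FPM in the SFD mice and 1.22, 1.31, 1.98 and 0.767 FPM in the HFD mice, every HFD mouse below every SFD mouse, with a log2 fold change of -1.90 ± 0.42 (SE) and an unadjusted p of 4.46e-04. The Schwann cell gene Cdh19 measured 10.6, 5.23 and 2.17 FPM in the SFD mice and 1.33, 1.41, 1.56 and 0.639 FPM in the HFD mice, but over the 11 Schwann cell genes 7 log2 fold changes were negative and 4 positive. The part of nerve tissue in the Erbb3 difference was not tested. Egfr itself measured 46.7, 39.5 and 54.3 FPM in the SFD mice and 65.1, 56.98, 51.2 and 57.03 FPM in the HFD mice, a log2 fold change of 0.30 ± 0.15 (SE). In the KO aortae, which keep Egfr outside smooth muscle, it measured 26.8, 35.5 and 28.0 FPM in the KO-SFD mice and 27.5, 40.6, 39.7 and 33.4 FPM in the KO-HFD mice. Erbb2, its preferred partner, measured 19.1, 14.4 and 19.1 FPM in the SFD mice and 20.1, 20.9, 23.5 and 20.5 FPM in the HFD mice, complete separation with a log2 fold change of 0.28 ± 0.15 (SE). The ligand Hbegf, made by smooth muscle on stimulation, measured 10.1, 10.7 and 15.7 FPM in the SFD mice and 22.3, 15.5, 14.1 and 17.0 FPM in the HFD mice, and Ereg, epiregulin, a ligand known as a smooth muscle mitogen, measured 3.28, 6.15 and 5.05 FPM in the SFD mice and 9.08, 6.63, 6.78 and 5.88 FPM in the HFD mice.

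Genes of vascular reactivity, 29 tested, had 3 higher and 5 lower at an unadjusted p under 0.05, beside 5.55% and 11.1% of all genes, and a median of 0.072. Adra1a, an α1-adrenergic receptor, had the smallest p of the list and measured 45.7, 30.0 and 4.48 FPM in the SFD mice and 4.49, 4.82, 6.46 and 5.88 FPM in the HFD mice, with mouse SFD3 level with the lowest HFD mouse. Adra1d, the α1-adrenergic receptor through which noradrenaline contracts the mouse aorta, measured 36.0, 16.1 and 39.9 FPM in the SFD mice and 37.7, 40.5, 43.0 and 42.2 FPM in the HFD mice. Higher ones were Cacna1c, the pore of the L-type calcium channel, with 133, 131 and 196 FPM in the SFD mice and 154, 196, 203 and 233 FPM in the HFD mice, Ppp1r14a (CPI-17), the inhibitor of myosin phosphatase, with 64.3, 67.9 and 103 FPM in the SFD mice and 89.4, 115, 104 and 118 FPM in the HFD mice, and Gucy1b3, a subunit of the nitric oxide receptor, with 68.1, 76.7 and 124 FPM in the SFD mice and 120.1, 127, 127 and 125 FPM in the HFD mice. In these, mice SFD1 and SFD2 were low and mouse SFD3 lay with the HFD mice.

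Rgs5, which shortens G protein signals in smooth muscle and pericytes, measured 1394, 1626 and 1568 FPM in the SFD mice and 1642.3, 1603, 1569.6 and 2029 FPM in the HFD mice, a log2 fold change of 0.16 ± 0.18 (SE). Mouse HFD4 stood above the other 6. Leaving out mouse SFD3, 8 genes of vascular reactivity rose and 3 fell at an adjusted p under 0.05 in edgeR, beside 3.23% and 8.52% of all genes. The list median was then 0.18. The covariate brought the list median to 0.020, and within the later number series it was -0.020.

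The Wnt pathway list had members of several roles that were higher on HFD. Wnt ligands bind Frizzled receptors with Lrp5 or Lrp6 and stabilise β-catenin or signal through Ror receptors, and secreted proteins such as Sfrp1, sclerostin and Dickkopf factors hold them back. Of 60 genes listed 48 were tested, of which 12 were higher and 2 lower at an unadjusted p under 0.05, beside 5.55% and 11.1% of all genes. In 6 every HFD mouse lay above, beside 4.43% of all genes, and in 1, Apc, every HFD mouse lay below, beside 4.53%. The list median was 0.26, 0.28 without mouse SFD3, 0.21 with the covariate and 0.074 within the later number series.

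Among ligands, Wnt9a measured 6.96, 6.67 and 8.52 FPM in the SFD mice and 13.4, 12.8, 8.97 and 11.1 FPM in the HFD mice, a log2 fold change of 0.65 ± 0.17 (SE) with an unadjusted p of 0.00159. Wnt16, a noncanonical ligand, measured 16.2, 18.8 and 17.0 FPM in the SFD mice and 31.3, 23.8, 26.1 and 25.1 FPM in the HFD mice, a log2 fold change of 0.61 ± 0.18 (SE). Both separated the diets. Wnt5a, the ligand of Ror receptors, did not, with 38.5, 33.6 and 54.9 FPM in the SFD mice and 48.6, 48.8, 52.2 and 53.8 FPM in the HFD mice.

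Receptors gave the next group. Fzd2 measured 37.5, 46.1 and 70.9 FPM in the SFD mice and 75.2, 71.4, 91.1 and 89.4 FPM in the HFD mice, Fzd8 measured 16.8, 18.4 and 18.2 FPM on SFD and 22.9, 29.6, 20.9 and 29.4 FPM on HFD, and Fzd7 measured 87.6, 106 and 115 FPM on SFD and 125, 122, 137 and 125 FPM on HFD, all 3 with complete separation. Fzd1 measured 55.0, 60.8 and 94.9 FPM in the SFD mice and 104, 95.5, 102 and 94.5 FPM in the HFD mice, where mouse SFD3 overlapped the HFD mice. Ror1 followed the same order, with 36.4, 35.2 and 53.6 FPM in the SFD mice and 62.1, 53.5, 65.5 and 62.7 FPM in the HFD mice. The coreceptor genes Lrp5 and Lrp6 had log2 fold changes of 0.16 ± 0.13 (SE) and 0.073 ± 0.10 (SE), and Lrp6 lay between 165 and 190.3 FPM in all 7 mice.

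Of 13 secreted and membrane regulators, 3 were higher and 2 lower at an unadjusted p under 0.05, beside 5.55% and 11.1% of all genes. Their median was 0.35 (0.087 with the covariate). Sost, sclerostin, the antagonist known from bone that is also made by aortic smooth muscle, measured 297, 307 and 551 FPM in the SFD mice and 752, 675, 617 and 529 FPM in the HFD mice. Sfrp1, secreted Frizzled-related protein 1, measured 40.5, 74.0 and 90.0 FPM in the SFD mice and 141, 122, 125 and 86.8 FPM in the HFD mice. Rspo3, an R-spondin that boosts Wnt receptors, measured 1.23, 1.33 and 2.02 FPM in the SFD mice and 2.04, 2.11, 3.86 and 4.60 FPM in the HFD mice at a level near the test's lower limit. In Sost and Sfrp1 mouse SFD3 lay above mouse HFD4, while in Rspo3 mouse HFD1 lay barely above mouse SFD3. The lower pair were Sfrp5, a relative of Sfrp1 that adipocytes also secrete, with 8.33, 1.95 and 0.866 FPM in the SFD mice and 0.714, 1.91, 0.313 and 0.256 FPM in the HFD mice, and the Dickkopf gene Dkk2, with 4.50, 2.26 and 1.30 FPM in the SFD mice and 1.02, 1.61, 0.730 and 1.02 FPM in the HFD mice. Both were highest in mouse SFD1, overlapped between the diets, and had log2 fold changes of -2.16 ± 0.81 (SE) and -1.28 ± 0.53 (SE), and -0.43 and -0.74 with the covariate.

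Transduction and target genes were flatter. Nkd1, a feedback antagonist, measured 41.2, 42.6 and 57.3 FPM in the SFD mice and 66.0, 56.9, 74.1 and 62.0 FPM in the HFD mice. Axin2, the target most used to read canonical signalling, measured 11.2, 8.10 and 6.06 FPM in the SFD mice and 5.10, 4.02, 6.26 and 8.06 FPM in the HFD mice, a log2 fold change of -0.54 ± 0.35 (SE), and Ccnd1, cyclin D1, had -0.14 ± 0.20 (SE). Lef1 reached 8.67 FPM in mouse HFD1 and between 0.273 and 1.73 FPM in the other 6. The TCF/LEF motif CTTTGAT, searched on both strands, was in 3.72% of all promoter windows, in 1 of 32 of the Wnt list and in 1 of 9 of the higher genes chosen by p that have a window. The last was Hspb6, shown for its place among those genes, with the motif of the other strand in capitals:
Hspb6, chr7:30552477-30552506, plus strand, 52 bases before the start: caatagtaaggATCAAAGgccgggctgacg
The RefSeq start of Hspb6 lay 362 bases inside the GENCODE gene whose position is given above, so the stretch lies within that gene.

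**Figure D4:**
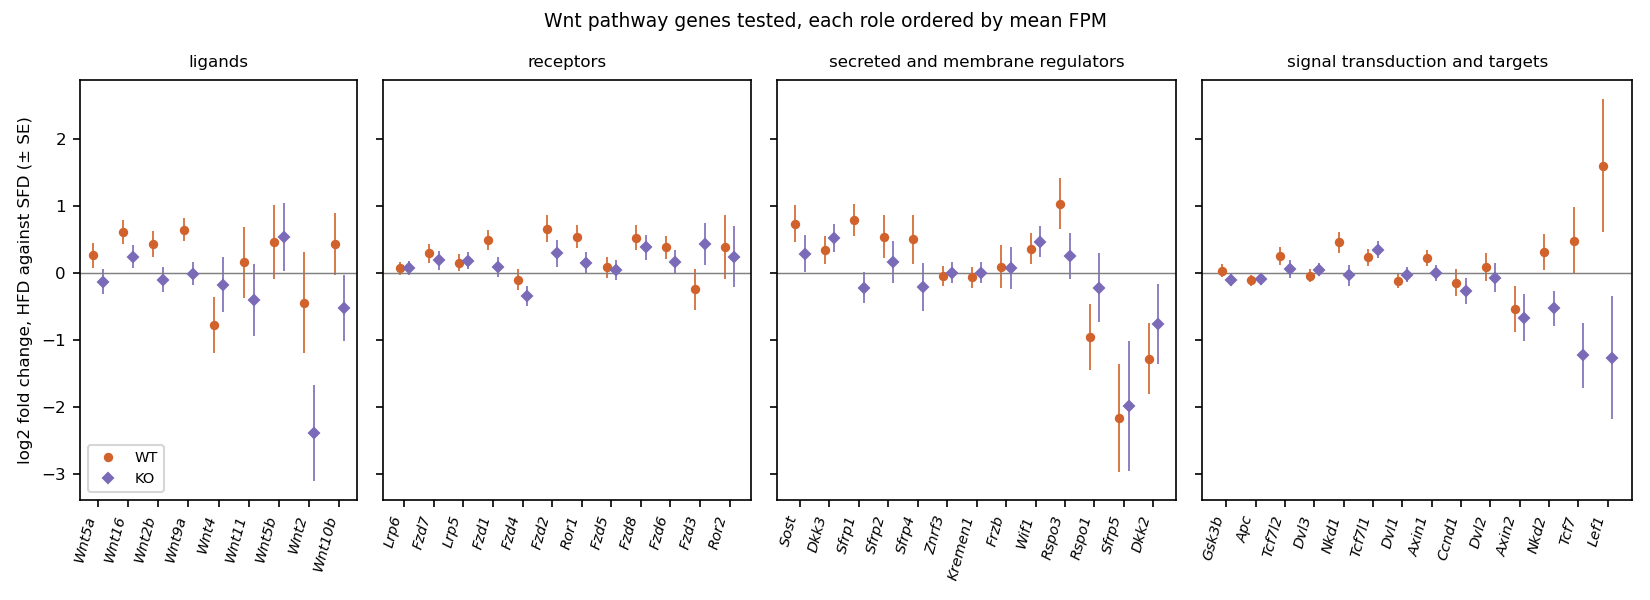
Log2 fold change (HFD minus SFD) with its standard error for the 48 tested genes of the Wnt pathway in WT and KO mice, grouped by role. In WT, Wnt9a, Wnt16, Fzd2, Fzd8 and Sfrp1 lie between 0.53 and 0.80, where KO has -0.0035, 0.25, 0.30, 0.39 and -0.21 in that order. These genes were named with their WT values known, so smaller KO values can follow from that choice.

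Genes of the extracellular matrix had positive log2 fold changes in 37 of 43 tested. Of these 43, 10 were higher and 1 was lower at an unadjusted p under 0.05, beside 5.55% and 11.1% of all genes. In 5 every HFD mouse lay above, beside 4.43% of all genes. The median was 0.30 (0.48 without mouse SFD3, 0.13 with the covariate, 0.10 within the later number series). By role, 7 of 18 elastic fibre proteins and glycoproteins, 2 of 14 collagens and 1 of 11 crosslinking enzymes, proteases and inhibitors were higher at that limit. Mfap4, a microfibril protein that binds elastin, measured 150.4, 224 and 215 FPM in the SFD mice and 296, 276, 305 and 265 FPM in the HFD mice, and Ltbp1, which stores latent TGF-β in the matrix, measured 415, 521 and 635 FPM in the SFD mice and 802, 704, 647 and 696 FPM in the HFD mice. Both separated the diets. Fbln1, fibulin 1, had the smallest p of the list, 0.00596, at 76.3, 68.2 and 113 FPM in the SFD mice and 173, 135, 107 and 147 FPM in the HFD mice.

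Eln, elastin, measured 841, 989 and 1138 FPM in the SFD mice and 2856, 1801, 1164 and 863 FPM in the HFD mice, and Lox, the enzyme that crosslinks it, measured 105, 121 and 101 FPM in the SFD mice and 277, 204, 106 and 78.8 FPM in the HFD mice. Mice HFD1 and HFD2 were high in both and mice HFD3 and HFD4 lay near or among the SFD mice, so the spread within HFD exceeded the difference between diets. The fibrillar collagens Col1a1 and Col1a2 had log2 fold changes of 0.31 ± 0.23 (SE) and 0.30 ± 0.23 (SE), with mouse SFD3 the highest of the 7 in both. Mgp, matrix Gla protein, an inhibitor of calcification, measured 579, 621 and 782 FPM in the SFD mice and 881, 854, 813 and 952 FPM in the HFD mice and separated. Timp4, a protease inhibitor also made in fat, was the lower one, with 16.1, 11.8 and 5.92 FPM in the SFD mice and 5.10, 5.83, 5.32 and 8.57 FPM in the HFD mice.

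Endothelial identity genes were split. Pecam1 and Vwf overlapped between the diets, with log2 fold changes of 0.12 ± 0.16 (SE) and -0.036 ± 0.13 (SE), whereas the VEGF receptor genes Kdr and Flt1 were lower, Kdr with 60.7, 39.2 and 3.61 FPM in the SFD mice and 3.57, 3.22, 6.88 and 5.63 FPM in the HFD mice and Flt1 with 73.7, 62.1 and 27.0 FPM in the SFD mice and 28.7, 23.7, 23.8 and 18.5 FPM in the HFD mice. The endothelial list had 2 higher and 4 lower of 16 at an unadjusted p under 0.05, beside 5.55% and 11.1% of all genes. Its median was -0.055 (-0.13 without mouse SFD3, 0.077 with the covariate, 0.16 within the later number series). In Kdr mouse SFD3 stood with the HFD mice, as it did in the adipocyte markers, and the log2 fold change with the covariate was -0.44. The higher pair was Erg, an endothelial transcription factor, with 53.5, 58.5 and 59.2 FPM in the SFD mice and 72.9, 75.6, 73.0 and 60.2 FPM in the HFD mice, and Edn1, the constrictor endothelin 1, with 14.5, 13.2 and 20.8 FPM in the SFD mice and 24.4, 24.3, 27.6 and 22.1 FPM in the HFD mice. Both separated by diet. Edn1 had a log2 fold change of 0.61 ± 0.19 (SE) with an unadjusted p of 0.00588, and rose without mouse SFD3 (edgeR adjusted p 0.0109).

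Leucocyte and inflammation genes were mostly low. Of 21 tested, 2 were higher and 3 lower at an unadjusted p under 0.05, beside 5.55% and 11.1% of all genes. The median was 0.15 (0.16 without mouse SFD3, 0.34 with the covariate, 0.24 within the later number series). Cd79a, part of the B cell receptor, measured 0.819, 1.33 and 0.578 FPM in the SFD mice and 7.75, 0.804, 4.17 and 2.43 FPM in the HFD mice, and Ms4a1 (CD20), a B cell surface protein, reached 4.90 FPM in mouse HFD1, 2.09 in mouse HFD3 and 0 in mouse HFD2. The neutrophil chemokine Cxcl1 measured 0.137, 0.513 and 0.578 FPM in the SFD mice and 1.12, 0.603, 2.09 and 2.17 FPM in the HFD mice, with complete separation at a very low level. Macrophage genes overlapped, as in Lyz2, with 45.4, 43.1 and 46.3 FPM in the SFD mice and 67.8, 49.7, 39.0 and 39.9 FPM in the HFD mice. The eotaxin Ccl11 measured 11.6, 7.90 and 4.04 FPM in the SFD mice and 5.10, 4.82, 5.42 and 4.99 FPM in the HFD mice, and Ccl7 was at 0 in all HFD mice and between 0.144 and 0.409 FPM in the SFD mice.

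Clock genes varied widely between mice of the same diet. Arntl (Bmal1) and Clock drive Per, Cry, Rev-erb (Nr1d1 and Nr1d2) and PAR bZIP genes (Dbp, Tef and Hlf) through the E-box CACGTG, and the proteins made feed back over the day. Of 18 genes tested, none was higher and 1 lower at an unadjusted p under 0.05, beside 5.55% and 11.1% of all genes. In 1 gene of the list every HFD mouse lay below every SFD mouse, beside 4.53% of all genes. In KO this held for 1 gene of the list, beside 3.59% of all genes. The clock genes whose values are given here overlapped between the diets. Dbp measured 41.6, 72.0 and 144 FPM in the SFD mice and 7.75, 57.7, 153 and 181 FPM in the HFD mice. Arntl ran against it, with 15.3, 7.18 and 1.16 FPM in the SFD mice and 33.3, 9.25, 1.36 and 0.895 FPM in the HFD mice.

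Several clock genes ordered the mice alike. Per3 measured 65.1, 88.5 and 206 FPM in the SFD mice and 17.1, 64.3, 169.9 and 207 FPM in the HFD mice, Hlf measured 27.2, 39.6 and 124 FPM in the SFD mice and 13.2, 39.2, 80.4 and 97.3 FPM in the HFD mice, and Bhlhe41 measured 27.3, 49.2 and 103 FPM in the SFD mice and 16.1, 41.4, 96.0 and 106 FPM in the HFD mice. In SFD, mouse SFD3 was high and mouse SFD1 low in Dbp, Per3, Hlf and Bhlhe41, and in HFD, mice HFD3 and HFD4 were high and mouse HFD1 low. Arntl and Npas2 had the reverse order, Npas2 with 26.9, 14.6 and 4.76 FPM in the SFD mice and 64.2, 28.8, 9.28 and 5.88 FPM in the HFD mice. The hour at which each aorta was taken is not given in the sources used here, and its part in these differences was not tested. The median log2 fold change of the list was -0.076, 0.39 without mouse SFD3, -0.31 with the covariate and -0.82 within the later number series.

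**Figure D5:**
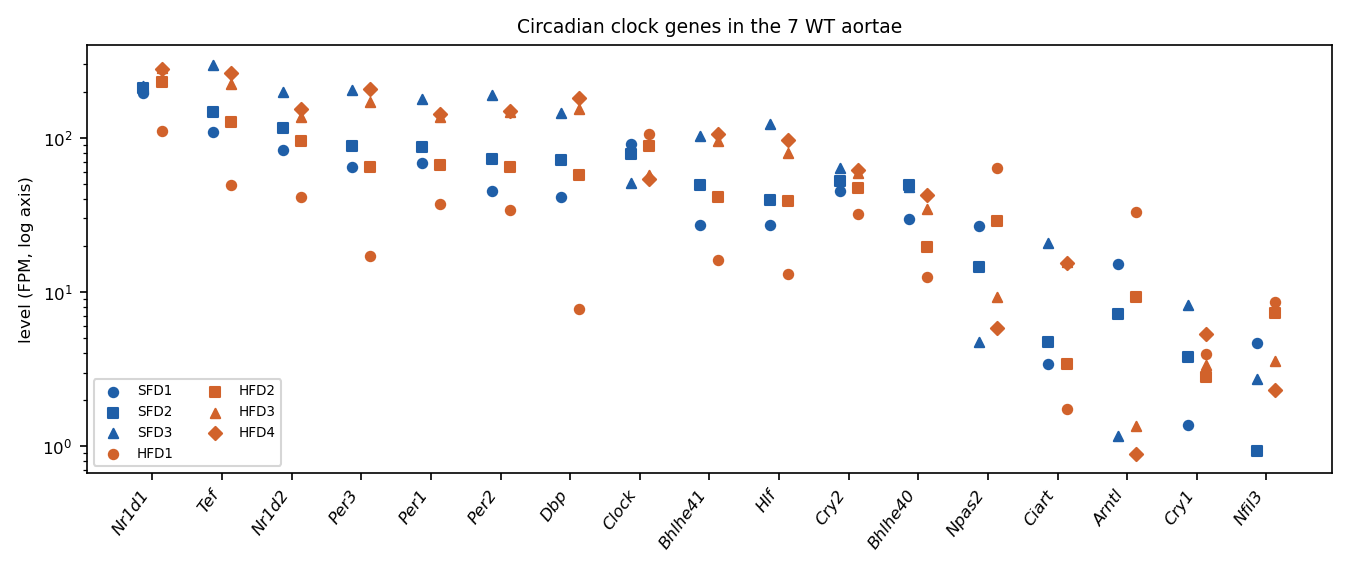
FPM (logarithmic axis) of 17 of the 18 tested clock genes in the 7 WT mice, 1 point per mouse, coloured by diet. Dbp ranges from 7.75 FPM in mouse HFD1 to 181 FPM in mouse HFD4.

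The E-box stood in 7.24% of all promoter windows and in 5 of the 15 clock genes with a window. Examples from genes that ran high in mice SFD3, HFD3 and HFD4 show it in capitals:
Per1, chr11:69098771-69098800, plus strand, 166 bases before the start: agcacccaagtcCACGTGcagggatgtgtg
Tef, chr15:81802534-81802563, plus strand, 127 bases before: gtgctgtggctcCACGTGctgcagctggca
Bhlhe41, chr6:145865556-145865585, minus strand, 153 bases before: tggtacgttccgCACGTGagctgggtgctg
Ciart, chr3:95882327-95882356, minus strand, 116 bases before: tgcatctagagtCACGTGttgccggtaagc
The RefSeq starts lay inside the GENCODE genes by 23 bases for Ciart, 138 for Bhlhe41, 252 for Tef and 3732 for Per1. Tef measured 109, 147 and 298 FPM in the SFD mice and 49.5, 127, 225 and 265 FPM in the HFD mice and Ciart, a repressor of the loop, measured 3.41, 4.72 and 20.8 FPM in the SFD mice and 1.73, 3.42, 15.6 and 15.3 FPM in the HFD mice. The same letters stood in Mief2 and Zbtb21, 2 of the genes chosen by p. The element of peroxisome proliferator-activated receptors, a direct repeat of AGGTCA with 1 base between its copies, searched with 1 mismatch allowed, stood in 0.544% of all windows and in none of those of 99 genes named by rule.

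Other lists were checked for tissue that can come with an aorta. Cardiac genes had 7 of 8 lower at an unadjusted p under 0.05, beside 11.1% of all genes. The cardiac median was -2.19 (-2.68 without mouse SFD3, -1.11 with the covariate, 0.072 within the later number series). Mouse SFD2 was the highest of the 7 WT mice in each of the 8, and without it the median was 0.17. Schwann cell genes had 4 of 11 lower at that limit, beside 11.1% of all genes, and a median of -0.75. The Schwann cell median was -1.10 without mouse SFD3 and turned to 0.12 with the covariate. Mouse SFD1 was the highest in each of the 4, and without it the median was 0.16. Skeletal muscle genes had 1 of 5 lower, beside 11.1% of all genes. This was Myl1, at 14.9, 12.1 and 0 FPM in the SFD mice and 0.510, 0.201, 1.56 and 0.384 FPM in the HFD mice. Fibroblast genes had none of 7 higher or lower, beside 5.55% and 11.1% of all genes. The fibroblast median was 0.25 (0.36 without mouse SFD3, 0.21 with the covariate, 0.17 within the later number series). Dcn, decorin, measured 309.5, 236 and 428 FPM in the SFD mice and 586, 472, 400.1 and 396 FPM in the HFD mice.

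Blood, mesothelial and cartilage lists had 2, 2 and 3 genes tested. Slc4a1, the anion exchanger of red cells, measured 1.23, 0.615 and 9.10 FPM in the SFD mice and 9.38, 4.72, 5.84 and 9.72 FPM in the HFD mice. The mesothelial gene Upk3b reached 2.11 FPM in mouse HFD2, the highest of the 7 mice. Acan, aggrecan, was the 1 of the 3 cartilage genes higher at an unadjusted p under 0.05, beside 5.55% of all genes. Acan measured 7.64, 9.13 and 16.7 FPM in the SFD mice and 17.1, 16.2, 22.9 and 16.2 FPM in the HFD mice. Heat shock and endoplasmic reticulum stress genes had 1 higher of 15, beside 5.55% of all genes, namely Atf4, the stress-response transcription factor, at 43.3, 39.9 and 41.7 FPM in the SFD mice and 55.9, 53.2, 47.9 and 41.9 FPM in the HFD mice. Calr and Pdia4, both chaperones of the endoplasmic reticulum, separated by diet with log2 fold changes of 0.23 ± 0.14 (SE) and 0.28 ± 0.13 (SE). Nnt, the mitochondrial transhydrogenase, whose full-length form C57BL/6J mice lack and other C57BL/6 substrains have, measured 49.4, 49.7 and 63.4 FPM in the SFD mice and 70.5, 65.4, 70.0 and 68.5 FPM in the HFD mice and separated by diet. The part of substrain in it was not tested.

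The KO mice allow the diet difference to be set beside that without smooth muscle EGFR, in other animals. In KO, 388 genes (2.62%) were higher and 718 (4.85%) lower at an unadjusted p under 0.05, 511 (3.45%) had every HFD mouse above and 531 (3.59%) every HFD mouse below, and none passed an adjusted p of 0.05 in edgeR, against 8 in DESeq2. At an unadjusted p under 0.05 the tools were close, with 1106 genes in edgeR and 1136 in DESeq2. With library totals in place of TMM the split by unadjusted p was 98 higher and 1075 lower. Of the genes with every HFD mouse above, 61 did so in both genotypes, 9.30% of those in WT and 11.9% of those in KO. Of those with every HFD mouse below, 69 were shared, 10.3% of those in WT and 13.0% of those in KO. Opposite separation occurred in 10 genes that lay above in WT and below in KO and in 8 genes the other way.

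Agmo, Abhd15, Tlcd2 and Hibadh of the lower genes, and Smo and Pdlim7 of the higher ones, separated in KO in the same direction. Agmo measured 16.7, 11.6 and 8.70 FPM in the KO-SFD mice and 4.40, 5.07, 6.48 and 3.97 FPM in the KO-HFD mice, Tlcd2 measured 5.76, 6.55 and 6.44 FPM in the KO-SFD mice and 5.50, 1.69, 1.92 and 2.46 FPM in the KO-HFD mice, and Smo measured 38.6, 46.7 and 45.9 FPM in the KO-SFD mice and 49.9, 50.7, 49.3 and 56.8 FPM in the KO-HFD mice. Their KO log2 fold changes were -1.28 ± 0.33 (SE), -1.13 ± 0.35 (SE) and 0.24 ± 0.11 (SE). These genes thus kept the order of the diets in both sets of mice.

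A difference of the diet effect between genotypes was tested directly, as WT minus KO. The earlier number series holds 2 WT-SFD mice and 1 KO-SFD mouse, so genotype and number series are partly mixed in this test. The part of the number series in the differences below was not tested. No gene passed an adjusted p of 0.05 in edgeR and 2 did in DESeq2, and 606 (4.10%) had an unadjusted p under 0.05 in edgeR. The genes chosen by p were picked on the WT mice, so their interaction p-values, given below, share that choice and are a description. List members were named by p in WT or after their values were seen, so the same holds for theirs. Gm20594 had the smallest p among the genes chosen by p, 4.10e-04, with a difference of -2.94 ± 0.65 (SE) and KO levels of 13.4, 6.27 and 6.89 FPM in the KO-SFD mice and 5.87, 6.39, 22.3 and 10.8 FPM in the KO-HFD mice. Krtcap2 measured 17.4, 23.0 and 18.9 FPM in the KO-SFD mice and 14.3, 22.6, 17.0 and 18.7 FPM in the KO-HFD mice, a difference of 0.75 ± 0.21 (SE) with an unadjusted p of 0.00328. Plac9a measured 49.0, 68.7 and 59.9 FPM in the KO-SFD mice and 62.1, 69.9, 55.7 and 65.4 FPM in the KO-HFD mice, a difference of 0.67 ± 0.20 (SE) with an unadjusted p of 0.00398.

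An interaction p under 0.05 before adjustment was held by 5 of 48 Wnt genes and 4 of 21 leucocyte and inflammation genes, beside 4.10% of all genes, and by at most 1 gene of any other list. Edn1 had an interaction p of 0.00275 before adjustment, with KO levels of 17.0, 26.9 and 26.6 FPM in the KO-SFD mice and 21.0, 17.6, 20.5 and 15.2 FPM in the KO-HFD mice. The 5 Wnt genes included Sfrp1 (0.00791) and Wnt9a (0.0145), with KO levels of Sfrp1 of 99.4, 164 and 145 FPM in the KO-SFD mice and 110.4, 126, 127 and 106 FPM in the KO-HFD mice. The KO median of the Wnt list was 0.0066. The 4 leucocyte and inflammation genes included Cd79a, Ms4a1 and Ccl7, and Cd79a had an interaction p of 0.00163 before adjustment, at 5.22, 3.90 and 6.07 FPM in the KO-SFD mice and 1.10, 3.66, 0.720 and 1.09 FPM in the KO-HFD mice.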

How the data were processed

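RNA of whole aortae was depleted of ribosomal RNA and sequenced in pairs. The authors trimmed the reads with cutadapt, aligned them with TopHat to mm10, made counts per gene (featureCounts) and deposited these counts, not normalized, in 1 table of the 14 aortae. No column with values of a sample was left unmatched (0). The kidney table was not used here.

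Counts were analysed with edgeR 4.0.16 in R 4.3.3, with TMM factors (0.862 to 1.24) and its default filter on low counts, in a quasi-likelihood fit over 4 groups (WT and KO, SFD and HFD). HFD was compared with SFD within WT and within KO, and the difference of both was tested as the interaction. P-values were adjusted by Benjamini-Hochberg over the 14796 genes. FPM, Cohen's d (limit 2) and ratios (limit 1.5) were computed here from the counts. DESeq2 1.42.0, other scalings, filters and covariates, and leaving out each mouse were alternatives. Changed genes were simulated to test the scripts. Intervals between replicates reflect separate mice, and the smallest chi-square per gene between 2 WT libraries was 22.1, so none was a duplicate.

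Genes were named by rule: 12 in each direction with the smallest p among protein-coding genes above 5 FPM without overlap, 5 in each direction with the largest d, and in each of the 26 lists (598 genes) the 4 with the highest level and the smallest p, with Egfr, Erbb2, Srf and Rgs5. Of these, the members with values that bear on a comparison are described, and other list members were named after their values were seen. A few items are not reported here. Members and lists were chosen with earlier results of these data known. Gene positions are those of GENCODE vM21 (GRCm38; 40254 of 41128 genes matched), and promoter sequences those of RefSeq (27025 symbols). Figures were drawn with matplotlib 3.10.9.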

Additional observations from a re-analysis of the deposited data

Results flagged for a closer look

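In 145 genes and measures of the 4 WT-HFD aortae, the highest or lowest mouse was set against its neighbours by Dixon's ratio of gap to range, with the 95% critical value for 4 samples. Chance flags about 1 in 20 such groups, and 7 of the 145 were flagged, so the number is no more than chance gives. Groups of 3, among them WT-SFD with mouse SFD3, were not tested.

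Mouse HFD3 stood high in Jun, the AP-1 factor, at 163 FPM, in Lpl, the lipoprotein lipase, at 120.1 FPM, and in Acan, aggrecan, at 22.9 FPM. Mouse HFD4 stood high in Rgs5, the regulator of G protein signals, at 2029 FPM, and in Ppargc1a, the mitochondrial coactivator, at 5.63 FPM, where the other HFD mice lay so close together that a small step was enough. Mouse HFD1 stood high in Lef1, a Wnt effector of lymphocytes and other cells, at 8.67 FPM, and mouse HFD2 in the mesothelial gene Upk3b, at 2.11 FPM. The causes of these single high values were not tested.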

How the results depend on the processing

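The number of genes called depended on mouse SFD3 and on the tool, the scaling, the filter and the covariate. At an adjusted p under 0.05 edgeR called 0 genes in WT with the 7 mice, 1801 (495 higher and 1306 lower) without mouse SFD3, and 0 when any other WT mouse was left out, a range of 0 to 1801. DESeq2 called 666, library totals in place of TMM 219 (4 higher and 215 lower), no filter on low counts 527 (23 higher and 504 lower), the adipocyte covariate 3, all lower, and a limit of 0.1 on the adjusted p, added after the data were seen, 648 (84 higher and 564 lower). At 0.001 DESeq2 called 7 (1 higher and 6 lower), and leaving out 1 mouse gave 0 to 243, the highest again without mouse SFD3. Genes at an unadjusted p under 0.05 numbered 2464 with the 7 mice, 1203 (517 higher and 686 lower) with the covariate, and 1493 to 3803 without 1 mouse, 1493 without mouse SFD1 and 3803 without mouse SFD3, and 934 (511 higher and 423 lower) with the later number series only, a fit added after the data were seen. By effect size there were 223, 432 (132 higher and 300 lower) without the limit on FPM, and 186 to 1713 without 1 mouse, 1713 again without mouse SFD3. The causes were not tested. Factors from relative log expression, protein-coding genes only and a fit of the WT groups alone each left 0 genes at an adjusted p under 0.05. Leaving out the 3 libraries with unequal U1 counts, also added after the data were seen, left 0 as well and 182 genes (95 higher and 87 lower) by effect size. In the interaction DESeq2 called 2 genes (1 in each direction), and leaving out any 1 mouse gave 0. In KO, 1106 genes at an unadjusted p under 0.05 became 1674 (528 higher and 1146 lower) without the filter, 635 (329 higher and 306 lower) with the covariate, and 433 to 1741 without 1 mouse, 433 without mouse KO-SFD1 and 1741 without mouse KO-SFD3.

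Of the 144 genes whose values are given, 8 turned direction with the covariate, their log2 fold changes becoming 1.52 for Ucp1, 0.78 for Cox8b, 0.90 for Myl1, 0.080 for Vwf, -0.075 for Nox4, -0.17 for Bhlhe41, -0.027 for Dbp and 0.015 for Ccnd1. Ucp1 and Cox8b are themselves among the 11 markers of the covariate. With library totals Apc came to 0.011 and Vwf to 0.076. Without the libraries with unequal U1 counts Ciart came to 0.21, Hlf to 0.025, Per3 to 0.15 and Upk3b to -3.38. Leaving out 1 mouse at a time turned 16 genes, with ranges of -1.01 to 1.38 for Arntl, -0.23 to 0.75 for Bhlhe41, -0.29 to 0.027 for Ccnd1, -0.51 to 1.12 for Ciart, -0.049 to 0.19 for Cpt1a, -0.23 to 0.81 for Dbp, -0.51 to 0.78 for Hlf, -0.067 to 0.23 for Lyz2, -5.46 to 0.57 for Myh6, -0.061 to 1.46 for Npas2, -0.030 to 0.23 for Pecam1, -0.51 to 0.57 for Per3, -0.46 to 0.38 for Tef, -1.99 to 0.57 for Tnnt2, -0.42 to 1.23 for Upk3b and -0.090 to 0.082 for Vwf. Myh6 and Tnnt2 turned without mouse SFD2. List medians other than those in the report moved by more than the spread between mice for the Wnt pathway (0.21 without mouse SFD1, 0.18 without mouse SFD2, 0.37 with library totals), for vascular reactivity (0.17 with library totals and 0.17 without the libraries with unequal U1 counts), for blood genes (3.15 without mouse SFD3), for mesothelial genes (-2.37 without the libraries with unequal U1 counts) and for heat shock and endoplasmic reticulum stress (0.14 without mouse HFD1, 0.38 with library totals). The difference in the share of small and structural RNAs ranged from 1.10 to 5.70 percentage points, 1.10 without mouse HFD4. No paired analysis was possible because the replicate numbers only count the mice of a group in accession order. Genes at the lowest levels, such as Ccl7 and Cxcl1, rest on few counts.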
